A study of Homo sapiens with 18 samples.

Results

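The 37 genes described here act in homologous recombination or in the Fanconi anemia pathway of DNA crosslink repair. They were chosen by symbol from a table of 23399 genes, and all 37 were found. The table holds 18 RNA-seq libraries of U2OS-MycER cells, a human osteosarcoma line that was given, by a retrovirus, a fusion of Myc with the hormone-binding part of the estrogen receptor. Whether the line was a pool or 1 clone is not given in the sources used here. Every group carries MycER and received an siRNA, either a pool against RAD21, a subunit of the cohesin ring (siRAD21), or an siRNA against Renilla luciferase (siCtrl). At transfection the cells were also given 400 nM 4-hydroxytamoxifen (OHT), which activates MycER, or ethanol. RNA was taken 24 or 48 h later, so there are 8 groups: siCtrl, siCtrl OHT, siRAD21 and siRAD21 OHT at each time. At 48 h siCtrl and siCtrl OHT have 3 libraries each, and every other group has 2. Groups are called OHT groups where OHT was given, and all others received ethanol.

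Homologous recombination repairs broken DNA by copying an intact sister chromatid, which cohesin holds close by. Nucleases first trim the broken ends, BRCA1, PALB2 and BRCA2 then prepare the exposed strand, which finds and invades the sister with the help of exchange proteins, and helicases and nucleases take the joined molecules apart. The Fanconi pathway senses crosslinks between the strands, puts ubiquitin on FANCD2 and FANCI, and hands the damage over to nucleases and recombination, and several of its genes are known as tumor suppressors.

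Values are eRPKM, exon read counts that the authors scaled by transcript length and by the mapped reads of the library, so levels are per length and can be set side by side between genes. Each comparison used log2(eRPKM + 0.5) in limma, with Benjamini-Hochberg adjustment over the 14993 genes whose mean reached 1 eRPKM. All fold changes, standard errors (SE) and 95% intervals are on that scale. Comparisons that use the same group share its libraries, and their values are then given side by side without an overlap. A gene is said to rise or fall when its adjusted p was below 0.05 and its log2 fold change was past 0.5 or -0.5. All 37 genes passed the filter on low values, and the lowest count behind any value was 96 reads, for RAD54B. The libraries held 9646026 to 12676200 reads in the table. RAD21 itself was at 93.3, 96.9 and 89 eRPKM in siCtrl and 11.2 and 11.3 in siRAD21 cells at 48 h, and at 72.2 and 69.3 against 18.1 and 18.6 at 24 h. The siRAD21 OHT libraries at 48 h differed by no more than the sampling noise of their reads (chi-square per gene 0.979, against 1.04 to 4.24 in other pairs of the same group), and they are counted as 1 sample in means. The fit keeps both as separate samples. Its SEs, intervals and adjusted p-values for this group may therefore understate the spread between cultures. The siRAD21 pair at 24 h was nearly as alike (1.04, against 1.46 or more in the remaining pairs). The same may hold for comparisons that use that pair. Of 8 bone or mesenchymal markers, COL1A1, SPARC and VIM were at 14.5 eRPKM or more in every library, while COL1A2, SP7 and IBSP were at 0.487 or less. PTPRC and CD3E of blood cells did not exceed 0.322 eRPKM, while CD68 was at 7.85 to 18.2 and the epithelial gene EPCAM at 2.56 to 12.9.

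In siCtrl cells at 48 h the highest levels were those of UBE2T, the ubiquitin-conjugating enzyme of the Fanconi pathway, and FANCG of its core complex, at 51.5 ± 2.93 and 51.3 ± 2.87 eRPKM (SD, n = 3). These levels differed by less than their SDs. The lowest were those of RAD51B and RAD54B, at 4.68 ± 0.369 and 2.33 ± 0.0797 eRPKM (SD, n = 3). The other 33 genes lay between 8.52 (RAD50) and 39.0 eRPKM (RAD51AP1), and of 36 pairs of neighbours in this order 25 differed by less than the larger of their SDs. PALB2, BRCA2, RAD54L and FANCD2 stood together at 17.1 to 17.2. The steps that exceeded the SDs included those from FANCG to RAD51AP1, from RAD50 to RAD51B and from RAD51B to RAD54B.

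At 24 h few of these genes passed the test after RAD21 silencing. Only RAD51D rose and none fell, that is 1 of 37 higher and 0 lower, while among all genes tested 5.83% were called higher and 2.6% lower (8.43% either way). The median log2 fold change was -0.05 over the 37 genes and 0.00 over all genes. RAD51D, which helps recombination filaments assemble, was at 11.2 and 10.9 eRPKM in siCtrl and 16.3 and 16.3 in siRAD21 cells. Its libraries did not overlap between the groups. Of the 37 genes 6 were apart and higher and 18 apart and lower, against 33.7% and 30.9% of all genes tested. The log2 fold change of RAD51D was 0.54 (SE 0.086, limma with Benjamini-Hochberg adjustment, adjusted p = 0.000383). The next largest differences were those of MUS81, the catalytic subunit of a junction-cutting nuclease, which was at 31.6 and 28.5 against 22 and 21.5 eRPKM (-0.46), and of PALB2, at 19.9 and 21.3 against 15.6 and 17.2 (-0.32). BLM and EXO1 were at -0.19 and -0.16, and BRCA1, FANCD2 and FANCG within 0.02 and 0.03. Without the siCtrl 24 h library 2, MUS81 also passed, at -0.53.

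At 48 h the picture was different. RAD21 silencing lowered 24 of the 37 genes and raised 2, against 11.2% of all genes tested called lower and 12.6% called higher (23.7% either way). The median log2 fold change was -0.63 over the 37 genes and -0.01 over all genes, and 33 of 37 values were below 0. In 31 of the 37 genes every siRAD21 library was below every siCtrl library, and in 2 it was above, while 36.7% and 33.4% of all genes tested were apart in the same way. The largest falls were those of BLM (2.43-fold) and EXO1 (2.32-fold), and each of the 7 groups by role held at least 1 gene that fell. Next to the fold threshold, SLX4 passed at -0.51 and UBE2T missed it at -0.498. UBE2T passed without siCtrl 48 h library 1 (-0.54). It also passed with a pseudocount of 0.1, median centring, voom or duplicate removal undone (-0.50 to -0.56).

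**Figure D1:**
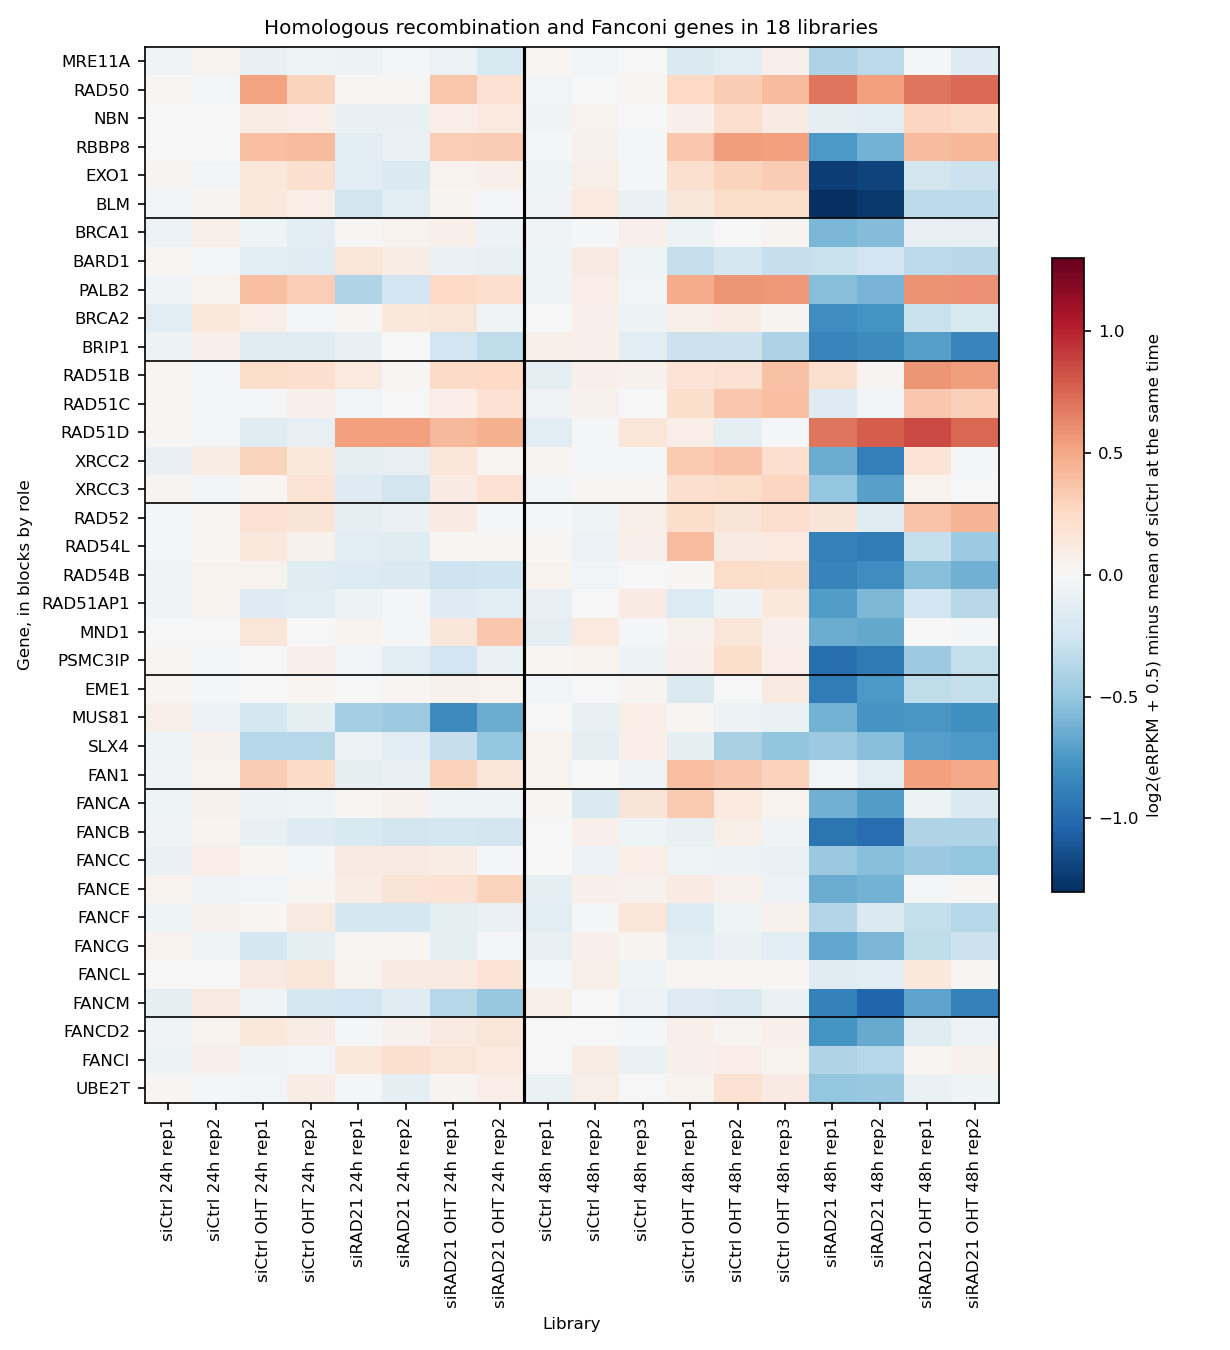
Each row is a gene and each column a library. Color gives log2(eRPKM + 0.5) minus the mean of the siCtrl libraries of the same time, from blue (lower) to red (higher), with black lines between groups of genes by role and between the times. The siRAD21 columns at 48 h are blue in most rows, with RAD51D and RAD50 red, and the siRAD21 OHT columns at 48 h are paler in most rows.

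S phase genes moved alongside. Of 20 genes that peak as cells enter S phase (such as those of the MCM helicase), 16 fell in siRAD21 cells at 48 h, with a median log2 fold change of -0.68, and their summed level was 588 to 617 eRPKM in siRAD21 against 932 to 970 in siCtrl libraries. Of 20 genes of G2 and mitosis 5 fell, with a median of -0.39, while 11.2% of all genes tested were called lower. In siRAD21 OHT libraries at 48 h the S phase sum was 915 to 919, and at 24 h it was 888 to 900 in siRAD21 and 888 to 958 in siCtrl libraries. Their part in the results for the 37 genes was not tested. In RNA from whole cultures, fewer cells in a phase and less RNA per cell cannot be told apart.

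The promoters of the 37 genes were read for short sequence motifs because so many of the genes moved together. RefSeq windows of 250 bases before to 50 after a start were at hand for 34 of the 37 genes (46 windows, GRCh38.p14). A match to any of 3 E2F motifs (GCGGGAA, TTTGGCGC or TTTCGCGC, either strand, none of which contains another) was found for 18 of 34 genes (52.94%), against 14.46% of 10436 genes tested that have a window and 9.01% of all genes with a window. Among the genes that fell in siRAD21 cells at 48 h it was 14 of 23 (60.87%), and among the others 4 of 11 (36.36%). The CCAAT box was found for 41.18% against 42.74% of genes tested, and the E-box CACGTG, to which Myc binds, for 8.82% against 12.34%. The CHR element TTTGAA of late cell cycle genes stood at 8.82% against 13.77%. A match is a description of letters and not a measured site. Differences between these shares were not tested, and neither was any part of E2F or Myc in the changes of the 37 genes. Where a gene had 2 starts, the window printed is that of the first by position, unless only the second held a match there. Printed here are the 150 bases before a start (1 of 2 starts for RAD54L, FANCC and RAD51D), 5′ to 3′ on the strand of the gene, with GCGGGAA or its reverse complement in capitals, for BLM (chr15:90717196-90717345, plus strand), which fell most, for RAD54L (chr1:46247538-46247687, plus strand) and FANCC (chr9:95317255-95317404, minus strand), which both fell and of which RAD54L alone passed the test for OHT in siRAD21 cells, for FANCM (chr14:45135780-45135929, plus strand), which fell and holds no match here, and for RAD51D (chr17:35119759-35119908, minus strand), which rose and holds a match all the same.
BLM: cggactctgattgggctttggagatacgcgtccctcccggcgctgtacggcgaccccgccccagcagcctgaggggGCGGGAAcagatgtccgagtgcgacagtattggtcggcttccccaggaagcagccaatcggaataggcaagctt
RAD54L: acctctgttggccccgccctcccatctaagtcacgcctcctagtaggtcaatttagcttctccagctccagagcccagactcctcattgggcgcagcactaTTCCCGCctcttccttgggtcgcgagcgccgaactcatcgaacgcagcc
FANCC: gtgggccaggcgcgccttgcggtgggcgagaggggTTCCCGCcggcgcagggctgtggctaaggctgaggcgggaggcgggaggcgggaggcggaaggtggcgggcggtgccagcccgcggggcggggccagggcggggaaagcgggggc
FANCM: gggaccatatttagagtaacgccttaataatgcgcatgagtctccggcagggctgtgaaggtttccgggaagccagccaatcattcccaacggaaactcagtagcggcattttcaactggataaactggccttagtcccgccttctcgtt
RAD51D: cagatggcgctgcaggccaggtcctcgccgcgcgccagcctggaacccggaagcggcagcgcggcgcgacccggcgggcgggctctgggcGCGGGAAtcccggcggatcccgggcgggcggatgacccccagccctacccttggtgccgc

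Among the 6 genes of end resection, 3 fell and 1 rose in siRAD21 cells at 48 h. BLM, the helicase mutated in Bloom syndrome, which unwinds broken ends and later dissolves joined DNA, was at 22, 24.8 and 21.4 eRPKM in siCtrl and 8.87 and 9.22 in siRAD21 libraries. The groups stood far apart, and the log2 fold change was -1.28 (SE 0.059, 2.43-fold lower, limma with Benjamini-Hochberg adjustment, adjusted p = 7.99e-10). EXO1, the exonuclease that extends the trimmed end, was at 29.3, 32.1 and 29.9 in siCtrl and 12.8 and 12.9 in siRAD21 libraries, which is -1.21 (SE 0.048, adjusted p = 1.91e-10). RBBP8 (CtIP), which starts resection together with the MRE11 complex, was at 33.1, 35.1 and 33.1 against 19.9 and 21.9 and fell too (-0.68, SE 0.056). Within the MRE11 complex RAD50 alone passed the test and rose from 8.31, 8.57 and 8.66 to 14.1 and 12.6 eRPKM (0.61, SE 0.075, adjusted p = 9.46e-06), while MRE11A stood at -0.37 and NBN at -0.14, both short of the fold threshold. All libraries of siRAD21 lay above those of siCtrl for RAD50 and below them for the other 5 genes. In GENCODE (GRCh37) 76.9% of the exon bases of RAD50 also belong to another gene model, mostly on the same strand. The exons counted for eRPKM are not given in the sources used here, and the share among them may differ.

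Of the 5 BRCA mediators 4 fell. BRIP1, the helicase that binds BRCA1, was at 22.1, 22 and 19 eRPKM in siCtrl and 11.3 and 11.5 in siRAD21 libraries, with a log2 fold change of -0.85 (SE 0.072, limma with Benjamini-Hochberg adjustment, adjusted p = 2.70e-07). BRCA2, the breast cancer gene that acts at the loading step, was at 17, 18 and 16.3 against 9.55 and 9.76, or -0.79 (SE 0.079). BRCA1 was at 18, 18.4 and 19.5 against 12.2 and 12.4 (-0.58, SE 0.057), and PALB2, which bridges BRCA1 and BRCA2, was at 16.5, 18.3 and 16.8 against 11.6 and 11.1 (-0.58, SE 0.056). Groups did not overlap for any of these 4. BARD1, the partner that BRCA1 needs as a ubiquitin ligase, was at 31.8, 35.6 and 31.7 against 27 and 27.6 eRPKM (-0.27, 95% interval -0.37 to -0.17), apart but short of the fold threshold.

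The 5 paralogs RAD51B, RAD51C, RAD51D, XRCC2 and XRCC3, which form small complexes that help strand exchange, did not move as a block. XRCC2 was at 13.2, 12.7 and 12.7 eRPKM in siCtrl and 8.06 and 6.74 in siRAD21 libraries (-0.76, SE 0.086) and XRCC3 at 22.8, 23.6 and 23.5 against 16.3 and 14 (-0.60, SE 0.061), and both fell. RAD51D, which binds XRCC2 directly, rose from 8.24, 9.06 and 10.2 to 15.1 and 16.1 (0.74, SE 0.078, limma with Benjamini-Hochberg adjustment, adjusted p = 2.27e-06). RAD51B and RAD51C overlapped between the groups, with log2 fold changes of 0.12 (95% interval -0.06 to 0.30) and -0.10 (-0.22 to 0.02). GENCODE places 76.7% of the exon bases of XRCC3 in exons of KLC1 on the other strand. The library kit does not mark strand, and the share among the exons that were counted may differ. Without the siRAD21 48 h library 2 XRCC3 was at -0.499, just short of the threshold.

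Of the 6 strand exchange partners 5 fell. PSMC3IP (HOP2) and MND1, which together help a strand invade a duplex, were at -0.95 (SE 0.071) and -0.66 (SE 0.072). PSMC3IP was at 11.4, 11.6 and 10.7 eRPKM in siCtrl and 5.42 and 5.69 in siRAD21 libraries, the lower group well clear of the higher. The motor proteins RAD54L and RAD54B, which remodel DNA during strand exchange, both fell. RAD54L was at 17.3, 16.1 and 17.9 against 9.09 and 8.85 (-0.89, SE 0.077), and RAD54B, low throughout, was at 2.41, 2.25 and 2.32 against 1.05 and 1.11 (-0.84, SE 0.10). RAD51AP1, which helps strands pair, was at 36, 39.1 and 41.8 against 23.4 and 25.7 (-0.66, SE 0.081). RAD52, which anneals single strands, was at 12.3, 11.9 and 13.1 against 14.1 and 11.1, with overlapping groups and a log2 fold change of 0.01 (95% interval -0.16 to 0.17). In GENCODE RAD54B shares 66% of its exon bases with FSBP on its own strand. MND1 shares 55.5% with an unnamed gene model and PSMC3IP 30.3% with neighbours on the other strand. Shares among the exons that were counted may differ.

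Of the 4 nucleases that cut branched DNA, EME1, MUS81 and SLX4 fell and FAN1 did not pass. EME1, the partner of MUS81, was at 18.7, 19.1 and 19.7 eRPKM in siCtrl and 9.96 and 11.2 in siRAD21 libraries (-0.83, SE 0.069). MUS81 was at 23.2, 21.5 and 24.4 against 14.9 and 13.3 (-0.69, SE 0.072), and SLX4, the scaffold that gathers nucleases, at 10.4, 9.1 and 10.6 against 7.07 and 6.65 (-0.51, SE 0.10, limma with Benjamini-Hochberg adjustment, adjusted p = 0.000782). FAN1 was at 9.94, 9.61 and 9.32 against 9.41 and 8.63, and the libraries overlapped. SLX4 dropped below the threshold without siCtrl library 1 (-0.49), without siCtrl library 3 (-0.47) or without siRAD21 library 2 (-0.47) at 48 h. The same held with a pseudocount of 1 (-0.49).

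The Fanconi core complex is the ubiquitin ligase that the pathway turns on at a crosslink, and 6 of its 8 genes fell. FANCB was at 8.67, 9.13 and 8.32 eRPKM in siCtrl and 4.27 and 4.14 in siRAD21 libraries (-0.97, SE 0.063, limma with Benjamini-Hochberg adjustment, adjusted p = 1.75e-08). FANCM, the translocase that anchors the complex on DNA, was at 12.3, 11.5 and 11 against 6.07 and 5.4 (-0.96, SE 0.089, adjusted p = 5.92e-07). These were 1.96-fold and 1.94-fold lower with no overlap. FANCA, a core subunit often mutated in Fanconi anemia, was at 10.6, 9.17 and 11.8 against 6.65 and 6.12 (-0.68, SE 0.10). FANCG was at 48, 53.5 and 52.3 against 31.9 and 33.7 (-0.64), and FANCE, which binds FANCD2, at 18.9, 21.5 and 21.3 against 12.9 and 13.2 (-0.63). FANCC, the partner of FANCE, was at 12.8, 12.1 and 13.7 against 9.04 and 8.59 (-0.52, SE 0.063). FANCL, the subunit that carries the ligase activity, was at 25.4, 27.2 and 24.9 against 23.1 and 23.3, which is -0.15 (SE 0.046) and the least difference of the 8, and FANCF was at -0.28 (SE 0.088). FANCC lost its call without siCtrl library 3 (-0.47) or siRAD21 library 2 (-0.48) at 48 h, and with a pseudocount of 1 (-0.49). Downstream of the core, FANCD2 fell from 17.2, 17.1 and 16.9 to 9.73 and 10.7 (-0.72, SE 0.048), while its partner FANCI was at 28.2, 30.4 and 26.7 against 21.6 and 21.9 (-0.38, SE 0.051) and UBE2T, which hands ubiquitin to both, at 48.5, 54.3 and 51.6 against 36.2 and 36.3.

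The effect of RAD21 silencing differed between the times for most of these genes. The difference of the 48 h and 24 h effects was below -0.5 and passed the test for 21 genes and was above 0.5 for 1, RAD50, against 6.86% and 3.85% of all genes tested (10.7% either way). The median difference was -0.61 over the 37 genes and -0.01 over all genes. BLM (-1.09, SE 0.087) and EXO1 (-1.05, SE 0.071) differed most, followed by BRCA2, PSMC3IP, EME1 and BRIP1 between -0.87 and -0.80 (limma with Benjamini-Hochberg adjustment, adjusted p of 7.26e-07 for EXO1 to 0.000158 for BRCA2). BRCA2 was at 18 and 21.8 eRPKM in siCtrl and 19.96 and 21.8 in siRAD21 libraries at 24 h, so its groups overlapped then and were well apart at 48 h. RAD51D passed at both times, at 0.54 and 0.74, and the change in its effect was 0.20 (95% interval -0.05 to 0.45). RAD50 was at 8.7 and 8.4 against 8.72 and 8.67 eRPKM at 24 h (0.02). XRCC3, at -0.40, passed without siRAD21 48 h library 1 (-0.51). FANCI passed here at -0.55 but not at 48 h alone, and without the siCtrl 24 h library 1 it was at -0.49. In siCtrl cells 2 of the 37 genes were lower at 48 than at 24 h, EME1 (-0.57) and BRCA1 (-0.50), and none was higher, against 6.91% and 5.53% of all genes tested (12.4% either way). Both calls were lost when libraries were centred on their medians (EME1 -0.48, BRCA1 -0.42), where FANCC was called higher instead (0.55). Without siCtrl 24 h library 2 FANCC was also called higher, at 0.54. BRCA1 was also short of the threshold without siCtrl 24 h library 2 (-0.43), 48 h library 1 (-0.48) or 48 h library 2 (-0.49).

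**Figure D2:**
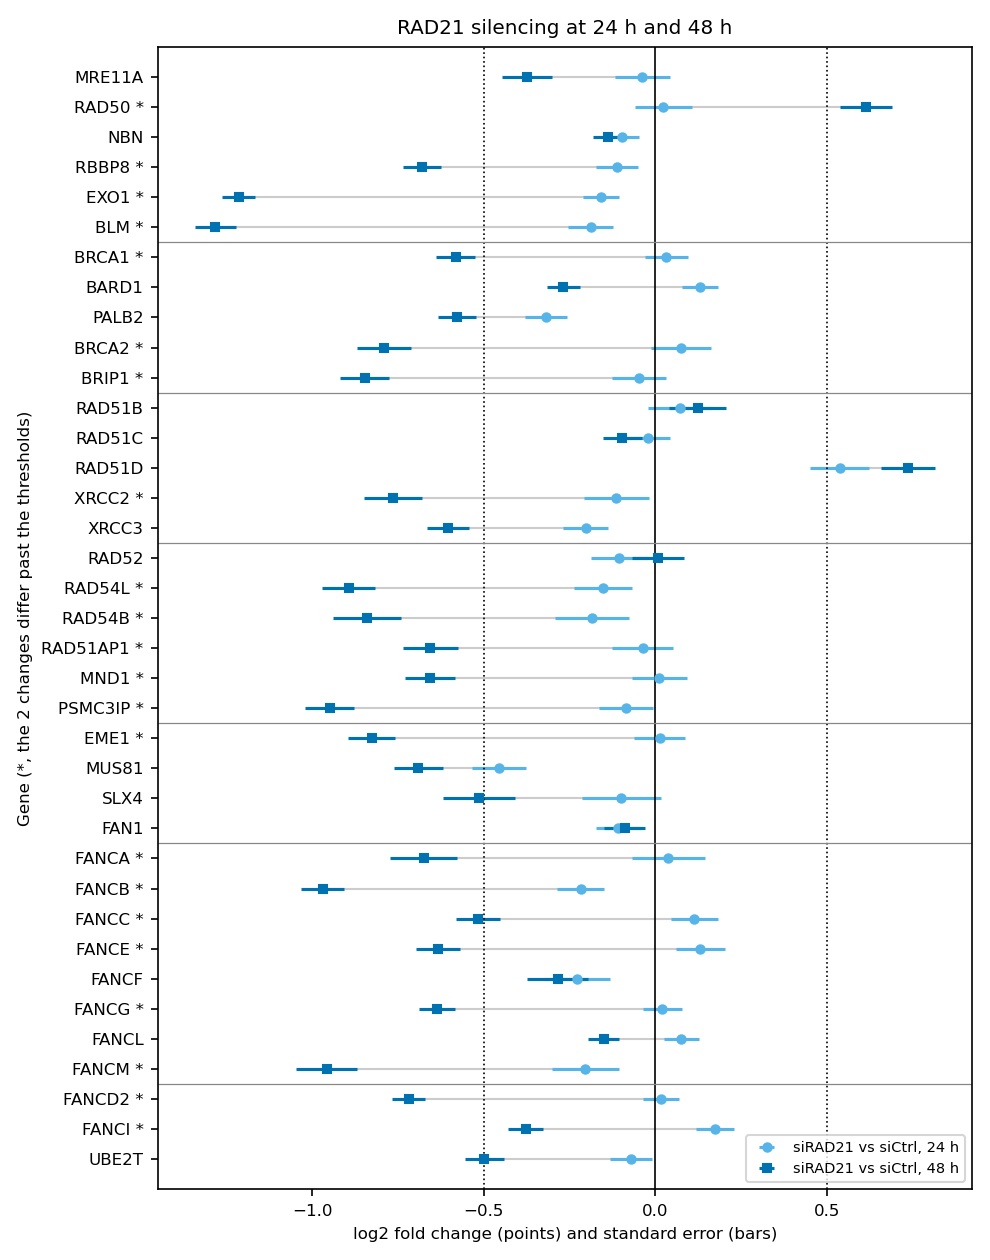
For each gene, the light blue circle is the log2 fold change of siRAD21 over siCtrl at 24 h and the dark blue square that at 48 h, with standard errors as bars and dotted lines at -0.5 and 0.5. Genes marked with a star are the 22 whose effects differed between the times past both thresholds. Circles lie within the dotted lines except for RAD51D, with MUS81 and PALB2 the lowest, and most squares lie to the left of -0.5.

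With OHT in siCtrl cells few of the 37 genes passed both thresholds. With no fold threshold 7 passed at 24 h, against 26.5% of all genes tested, and 17 at 48 h, against 53.3%. At 24 h none passed in either direction with limma and Benjamini-Hochberg adjustment, against 3.68% of all genes called higher and 5.1% lower (8.78% either way). Of the 37 genes 14 had an unadjusted p below 0.05, and voom on recovered reads called 0. Without siCtrl OHT 24 h library 2, RAD50 passed at 0.52. At 48 h only PALB2 rose and none fell, against 7.78% and 10.1% of all genes (17.9% either way). PALB2 was at 16.5, 18.3 and 16.8 eRPKM in siCtrl and 24.2, 25.9 and 25.7 in siCtrl OHT libraries, or 0.54 (SE 0.05, adjusted p = 7.74e-07). RBBP8 stood next at 33.1, 35.1 and 33.1 against 43.1, 49.4 and 49, or 0.47, and passed without siCtrl 48 h library 2 (0.50) or siCtrl OHT 48 h library 1 (0.54). FAN1 was at 9.94, 9.61 and 9.32 against 12.7, 12.4 and 11.9 (0.34) and BRIP1 at 22.1, 22 and 19 against 17.2, 17.2 and 15.7 (-0.32), each without overlap and short of the fold threshold. In this comparison 15 of the 37 genes were apart and higher and 3 apart and lower, against 27.3% and 28.8% of all genes tested. BRCA1, BRCA2, FANCD2 and FANCI lay between -0.01 and 0.07. The change of the OHT effect from 24 to 48 h passed for none of the 37 genes by limma or voom, 2 had an unadjusted p below 0.05, and among all genes tested 0.714% were called higher and 1.06% lower (1.77% either way).

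In siRAD21 cells OHT raised many more of them at 48 h. Of the 37 genes 16 rose and none fell, against 12.4% of all genes tested called higher and 16.2% lower (28.6% either way). The median log2 fold change was 0.43 over the 37 genes and -0.02 over all genes. This comparison and that of siRAD21 with siCtrl share the siRAD21 libraries, so opposite values in them are not independent. PALB2 rose most, from 11.6 and 11.1 to 25.9 and 26.2 eRPKM (1.17, SE 0.062, limma with Benjamini-Hochberg adjustment, adjusted p = 3.82e-09). RBBP8 rose from 19.9 and 21.9 to 45.2 and 45.6 (1.10, SE 0.061), EXO1 from 12.8 and 12.9 to 25.6 and 25 (0.95, SE 0.052) and BLM from 8.87 and 9.22 to 17.7 and 17.9 (0.94, SE 0.064). In none of these did the libraries overlap. Of all 37 genes, 29 were apart and higher and 2 apart and lower, against 40.7% and 41.8% of all genes tested. XRCC2 followed at 0.85, MND1 at 0.65, and XRCC3, FANCE, FAN1, FANCD2, FANCB, PSMC3IP, FANCA, BRCA2, RAD54L and EME1 between 0.63 and 0.51. EME1 was short of the threshold without siRAD21 library 1 or siRAD21 OHT library 2, PSMC3IP without siRAD21 OHT library 2, and RAD54L and FANCA without siRAD21 library 2 or siRAD21 OHT library 1, at 0.42 to 0.50. RAD51B (0.52) and RAD52 (0.56) passed without siRAD21 library 1. At 24 h only PALB2 rose (15.6 and 17.2 to 24.8 and 24 eRPKM, 0.56) and none fell, against 4.29% and 7.62% of all genes (11.9% either way). Without siRAD21 24 h library 1 it was at 0.49.

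RAD21 was at 11.2 and 11.3 eRPKM in siRAD21 and 11.1 and 11.1 in siRAD21 OHT libraries at 48 h, and at 89.1, 96.3 and 96.2 in siCtrl OHT libraries. With OHT in siRAD21 cells at 48 h 11 of the 20 S phase genes and 3 of the 20 G2 and mitosis genes rose. Among all genes tested 12.4% were called higher. The S phase sum was 915 to 919 eRPKM in siRAD21 OHT and 1002 to 1058 in siCtrl OHT libraries. The sum of the G2 and mitosis genes was 850 to 881 in siRAD21 and 1039 to 1040 in siRAD21 OHT libraries, and the part of either list in the results for the 37 genes was not tested.

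By role, OHT in siRAD21 cells at 48 h raised 3 of 6 genes of end resection, 2 of 5 BRCA mediators, 2 of 5 paralogs, 3 of 6 strand exchange partners, 2 of 4 nucleases, 3 of 8 genes of the Fanconi core and FANCD2 of the last 3. Among the paralogs XRCC2 rose from 8.06 and 6.74 to 14.6 and 12.8 eRPKM and XRCC3 from 16.3 and 14 to 24.1 and 23.3. MND1 rose from 12 and 11.9 to 19.2 and 19 and its partner PSMC3IP from 5.42 and 5.69 to 7.9 and 8.9. None of these 4 overlapped between the groups, and 40.7% of all genes tested were apart and higher in this comparison. In the Fanconi core FANCE rose from 12.9 and 13.2 to 20.2 and 20.8, FANCB from 4.27 and 4.14 to 6.51 and 6.53 and FANCA from 6.65 and 6.12 to 10.02 and 9.13. FANCD2 rose from 9.73 and 10.7 to 15.3 and 16.2, BRCA2 from 9.55 and 9.76 to 13.9 and 14.8 and FAN1, the nuclease that did not pass with silencing, from 9.41 and 8.63 to 14.2 and 13.8. BRCA1, at 12.2 and 12.4 against 17.2 and 17.3 (0.47, SE 0.063), was apart but just short of the fold threshold.

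Some genes that fell with RAD21 silencing did not pass the test for OHT in siRAD21 cells, and their values lay near those without OHT. BRIP1 was at 11.3 and 11.5 eRPKM in siRAD21 and 12.6 and 11.3 in siRAD21 OHT libraries (0.06, 95% interval -0.11 to 0.23), FANCM at 6.07 and 5.4 and 7.04 and 6.06 (0.18, -0.03 to 0.39) and MUS81 at 14.9 and 13.3 and 13.4 and 13 (-0.09, -0.26 to 0.08). The libraries of these 3 genes overlapped between the groups. FANCC was at 0.03 (-0.12 to 0.17), and SLX4 was at 7.07 and 6.65 and 5.91 and 5.77 (-0.22, -0.46 to 0.03), lower in both libraries with OHT. RAD51D and RAD50, the genes that rose with silencing, were at 0.07 and 0.10 with OHT.

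**Figure D3:**
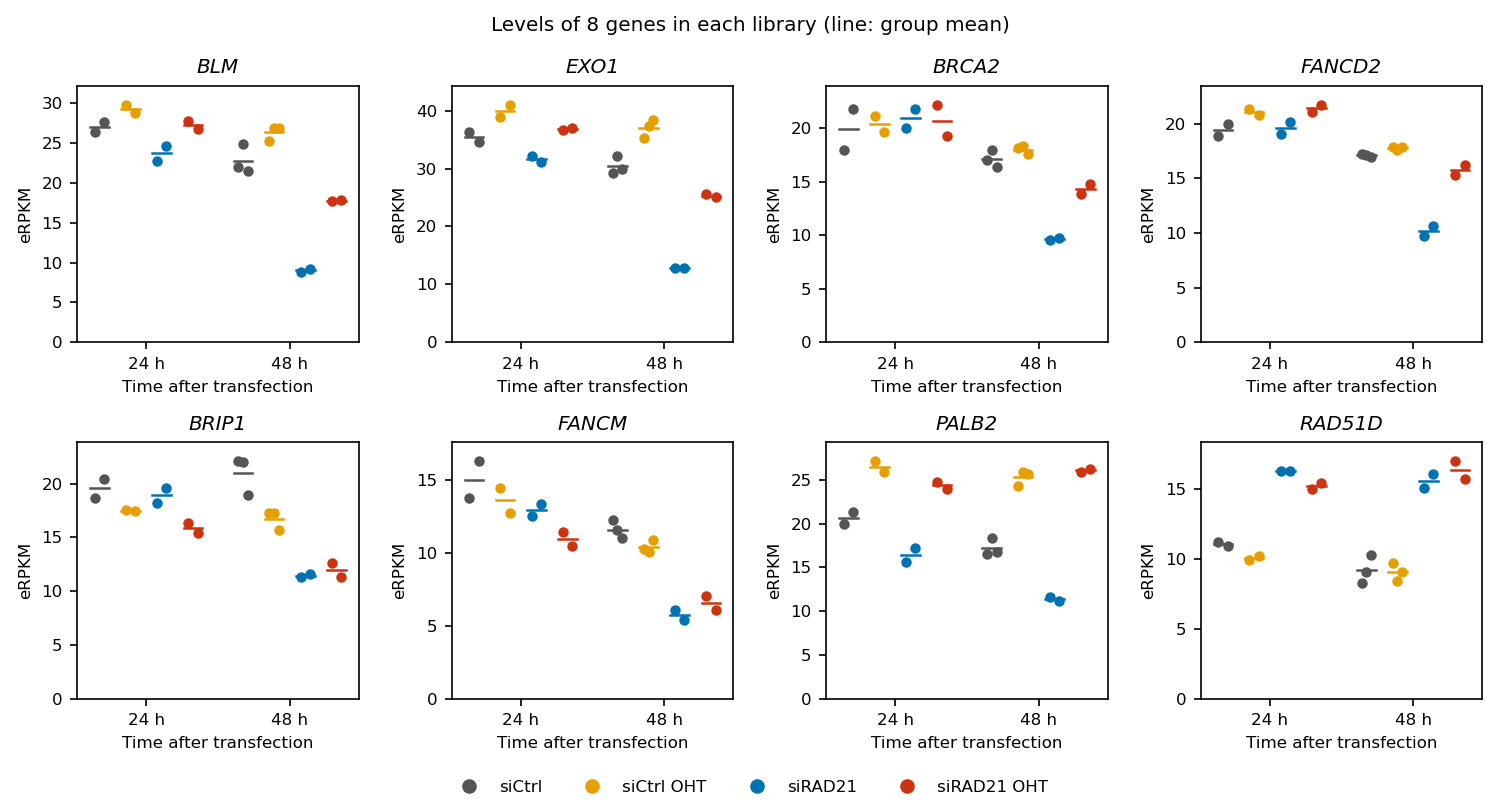
Points are eRPKM of single libraries and lines are group means for 8 genes, with the 4 groups at 24 h to the left and at 48 h to the right of each panel. BLM, EXO1, BRCA2 and FANCD2 are lowest in siRAD21 at 48 h and stand between siRAD21 and siCtrl in siRAD21 OHT, PALB2 in siRAD21 OHT is level with siCtrl OHT, BRIP1 and FANCM stay near siRAD21, and RAD51D is high in all siRAD21 and siRAD21 OHT libraries.

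With OHT in both arms, RAD21 silencing lowered 7 genes and raised 1 at 48 h, against 7.74% and 8.47% of all genes tested (16.2% either way). The median log2 fold change was -0.19 over the 37 genes and 0.00 over all genes. The 7 were RAD54B (2.35, 2.82 and 2.8 eRPKM in siCtrl OHT, 1.43 and 1.33 in siRAD21 OHT libraries, -0.74, SE 0.10), MUS81 (23.5, 22 and 21.6 against 13.4 and 13, -0.73, SE 0.072), FANCM (-0.63), RAD54L (-0.60), BLM (-0.55), EXO1 (-0.54) and PSMC3IP (-0.52). All 7 are among the 24 genes that fell without OHT (29.2% of the 24), and these comparisons share no library. None of the 7 overlapped between the groups. Of all 37 genes, 24 were apart and lower and 7 apart and higher, against 32.3% and 31.6% of all genes tested. RAD51D was the gene that rose, from 9.71, 8.39 and 9.04 to 17 and 15.7 (0.82, SE 0.078, limma with Benjamini-Hochberg adjustment, adjusted p = 1.44e-06), as it did without OHT, while RAD50 was at 0.38. PALB2, RBBP8, FANCE, FANCI, MRE11A and RAD51C lay within -0.05 and 0.05. PSMC3IP lost its call without siCtrl OHT library 2 (-0.47) or siRAD21 OHT library 1 (-0.44), EXO1 lost it under quantile normalization (-0.48), and BRIP1, at -0.47, passed without siCtrl OHT library 3 (-0.51) or siRAD21 OHT library 1 (-0.54). At 24 h RAD51D was again higher (0.57) and MUS81 lower (-0.56), 1 gene each way against 3.74% and 2.73% of all genes (6.47% either way), and MUS81 was short of the threshold without siRAD21 OHT library 1 (-0.47).

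Set against siCtrl, the siRAD21 OHT cells at 48 h had 5 genes higher and 5 lower, against 13.1% and 14.9% of all genes tested (28% either way). The median was -0.11 over the 37 genes and 0.00 over all genes. Higher were RAD51D (0.80), RAD50 (0.72), PALB2 (0.59), RAD51B (0.56) and FAN1 (0.52). Lower were BRIP1 (-0.79), MUS81 (-0.78), FANCM (-0.78), SLX4 (-0.73) and RAD54B (-0.59). RAD51B was at 4.25, 4.91 and 4.88 eRPKM in siCtrl and 7.22 and 7.01 in siRAD21 OHT libraries, without overlap (adjusted p = 5.09e-05, limma with Benjamini-Hochberg adjustment). Of the 37 genes 9 were apart and higher and 19 apart and lower, against 36.8% and 36.5% of all genes tested. MND1, FANCE, XRCC3 and FANCI, whose libraries overlapped with siCtrl, lay within 0.00 and 0.04, and the widest of their 95% intervals ran from -0.16 to 0.15 (MND1). FAN1 lost its call without siCtrl library 3 or siRAD21 OHT library 1 (both 0.50) and RAD51B without siCtrl library 1 (0.50). FAN1 also lost its call with a replicate block (0.49) or a pseudocount of 1 (0.50). RAD54B lost it under quantile normalization (-0.50), and FANCC, at -0.49, passed without siCtrl library 2 (-0.53). At 24 h MUS81 was lower (-0.74) and no gene was higher, against 6.51% and 6.62% of all genes (13.1% either way). There FANCM (-0.55, without siCtrl library 1) and SLX4 (-0.51, without siRAD21 OHT library 1) also passed.

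The difference between the OHT effects in siRAD21 and siCtrl cells was tested as an interaction. At 48 h it was positive past both thresholds for 10 of the 37 genes and negative for none, against 3.33% and 3.97% of all genes tested (7.3% either way), with a median of 0.37 over the 37 genes and 0.02 over all genes. The 10 were BLM (0.73, SE 0.083), EXO1 (0.68, SE 0.068), RBBP8 (0.63), PALB2 (0.62), FANCB and FANCE (both 0.60), MND1 (0.56), FANCD2 (0.55), XRCC2 and EME1 (both 0.54), with adjusted p from 3.27e-05 for EXO1 to 0.00781 for XRCC2 (limma with Benjamini-Hochberg adjustment). BRCA1 (0.48), BRCA2 (0.47) and FANCG (0.45) lay just below the fold threshold. Under quantile normalization 13 genes passed, with BRCA1 (0.51), BRCA2 (0.54) and PSMC3IP (0.57) added. With duplicate removal undone 12 passed, with BRCA1 (0.50) and FANCG (0.501) added. Under voom 11 passed, with BRCA1 (0.50) added. RAD51D (0.08), MUS81 (-0.04), FANCC (0.10) and RAD54B (0.10) had 95% intervals that span 0. Of the 10, XRCC2, EME1, FANCD2 and MND1 were short of a threshold in 1 or more fits without a library: XRCC2 without siCtrl OHT library 3, siRAD21 library 2 or siRAD21 OHT library 1, EME1 without siCtrl OHT library 1 or siRAD21 library 1, FANCD2 without siRAD21 library 1 and MND1 without siCtrl library 2 (0.42 to 0.50, all at 48 h). BRCA1 passed without siCtrl library 1 or siCtrl OHT library 3, BRCA2 without siCtrl library 3 or siRAD21 OHT library 1 and PSMC3IP without siRAD21 OHT library 1 (0.50 to 0.52).

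At 24 h the interaction passed for none of the 37 genes and for none of all genes by limma, where 2 of the 37 and 906 of all genes had an unadjusted p below 0.05, and voom called 0 of the 37 and 19 of all genes.

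**Figure D4:**
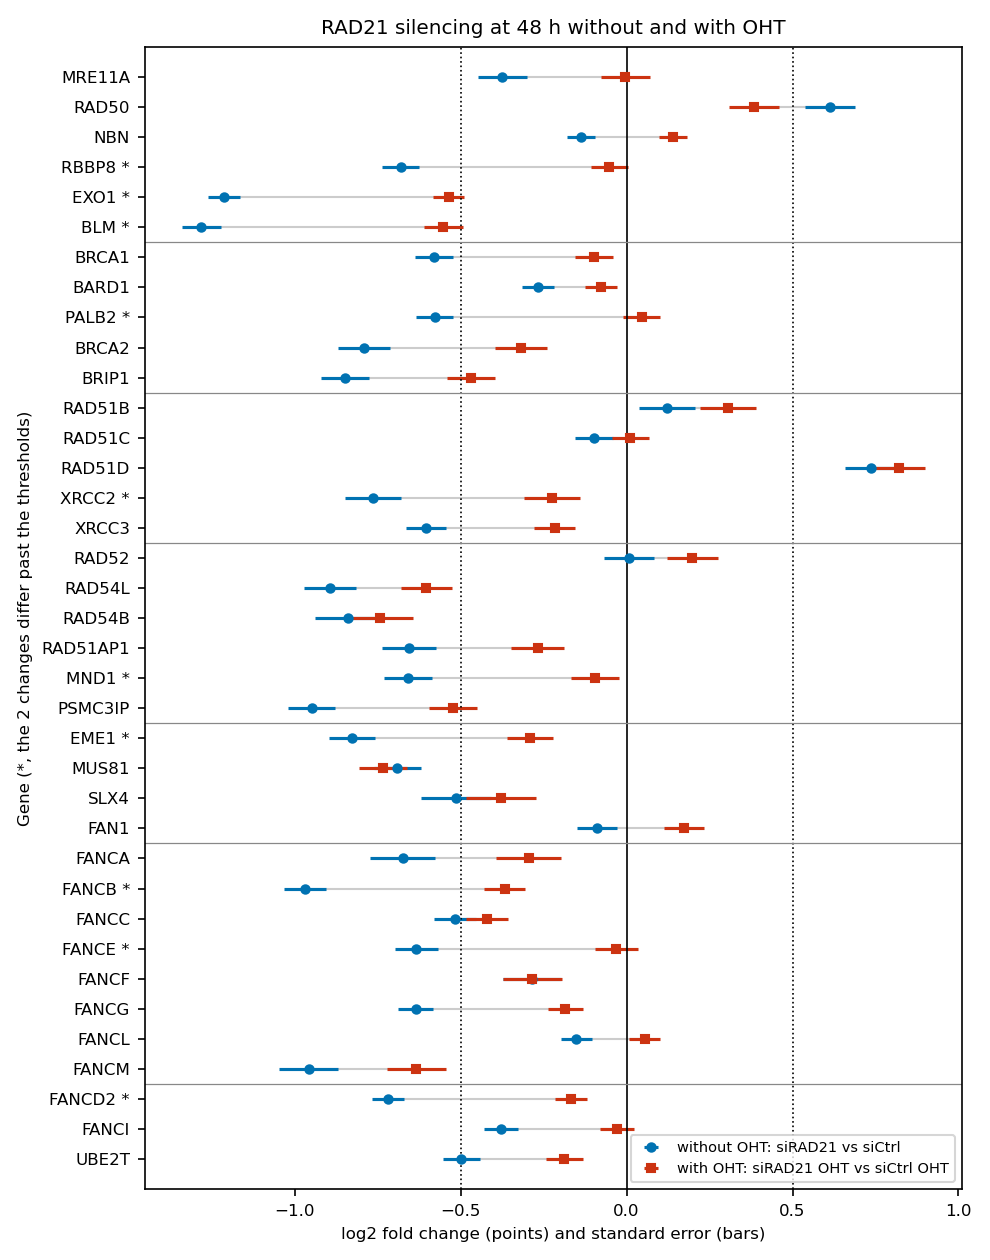
Blue circles are log2 fold changes of siRAD21 over siCtrl and red squares those of siRAD21 OHT over siCtrl OHT at 48 h, with standard errors as bars and dotted lines at -0.5 and 0.5. Stars mark the 10 genes with an interaction past both thresholds. Most squares lie nearer to 0 than their circles, while those of MUS81, RAD54B and RAD51D lie beside them.

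Of the other genes of these pathways, a list of 63, 58 are in the table and 56 were tested. In siRAD21 cells at 48 h 14 of 56 fell and 1 rose, against 11.2% and 12.6% of all genes, with a median of -0.23 against -0.01. Among those that fell, DNA2, a resection nuclease, was at -1.03 and RMI2, which works with BLM, at -0.83. REV3L, the catalytic subunit of polymerase zeta, rose from 11.8, 10.6 and 11.2 to 26.7 and 25 (1.17, SE 0.084). OHT in siRAD21 cells raised 10 of 56 and lowered none at 48 h, against 12.4% and 16.2% of all genes, with a median of 0.12 against -0.02. Among these were the checkpoint kinase CHEK2 (14.4 and 15 to 34.7 and 35.4, 1.23), RPA2 (0.79) and CHEK1 (0.68). The interaction at 48 h was positive and passed for 4 of 56, against 3.33% of all genes, and was negative for none, against 3.97%. Among the 4 were APITD1 (0.60), a partner of FANCM, CHEK2 (0.52) and RPA2 (0.52) (limma with Benjamini-Hochberg adjustment). With OHT in both arms 2 of 56 were higher and 2 lower in siRAD21 cells, against 8.47% and 7.74% of all genes. REV3L (1.04) and ATR (0.67) were higher and RMI2 (-0.69) and DNA2 (-0.61) lower.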

How the data were processed

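RNA was depleted of ribosomal RNA, made into TruSeq v2 libraries and sequenced by the authors, who trimmed reads, aligned them to hg19 with TopHat2 (2.0.8, per the submitters' notes), removed PCR duplicates and deposited RPKM values over exons (eRPKM) for 23399 genes. The submitters' notes also name featureCounts 1.4.5, and the counting annotation is not given in the sources used here. The thresholds are those of the study, whose own test needs counts and was not run on eRPKM.

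Groups came from the library titles. Here, limma 3.58.1 (R 4.3.3) with a variance trend was fitted to log2(eRPKM + 0.5) of all 18 libraries with 1 mean per group. Genes with a mean of at least 1 eRPKM were tested and adjusted by Benjamini-Hochberg. Whole reads were recovered from the steps of the eRPKM for 21261 genes (90.863%, within 0.02 of a whole number; 1359 more were 0 throughout), giving 9646026 to 12676200 reads per library. Duplicate removal limits a gene to 2 reads per base, of which the 37 genes reached at most 33.8%. The code was run on simulated counts with planted changes, the same dispersion for every gene and no duplicate removal. That run checks the code and not the calls made here. The study calls its replicates biological, and p-values measure the spread between these libraries. Same-numbered siCtrl and siCtrl OHT libraries at 48 h deviated together (r = 0.258, 0.130 and 0.157), which may mean that they were paired. The labels do not state pairing, and the main fit does not use it.

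The 37 genes, their groups by role and the other lists were chosen with earlier results of these data known. Any of the 37 may be named, and full statistics go to those that passed, the 6 largest first, and to those nearest the fold threshold. Other genes named are RAD21, MYC and, per comparison at 48 h, the 4 largest of the other pathway genes that passed, less items that are not reported here. Motifs came from RefSeq promoters, positions from GENCODE and tables from Python 3.11.15 with pandas 2.3.3. Alternatives were other pseudocounts, filters, scalings, fold thresholds, a fit to fewer groups, voom, a fit with no trend, a replicate block, averaging siRAD21 OHT at 48 h and leaving out each library. Undoing duplicate removal and a crossed block were added after seeing the data.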

Additional observations from a re-analysis of the deposited data

Results flagged for a closer look

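The change in the effect of RAD21 silencing from 24 to 48 h passed the test for 22 of the 37 genes. In end resection it was 0.59 for RAD50, -0.57 for RBBP8, -1.05 for EXO1 and -1.09 for BLM on the log2 scale. Among the BRCA mediators it was -0.61 for BRCA1, -0.87 for BRCA2 and -0.80 for BRIP1, and of the 5 paralogs RAD51B, RAD51C, RAD51D, XRCC2 and XRCC3 only XRCC2 passed, at -0.65. Of the strand exchange partners RAD54L stood at -0.74, RAD54B at -0.66, RAD51AP1 at -0.62, MND1 at -0.67 and PSMC3IP at -0.86, and of the nucleases EME1 at -0.84. In the Fanconi core the values were -0.71 for FANCA, -0.75 for FANCB, -0.63 for FANCC, -0.76 for FANCE, -0.66 for FANCG and -0.75 for FANCM, and downstream of it they were -0.73 for FANCD2 and -0.55 for FANCI.

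OHT also had a different effect at 48 h in siRAD21 than in siCtrl cells for 10 genes. The difference was 0.63 for RBBP8, 0.68 for EXO1, 0.73 for BLM, 0.62 for PALB2, 0.54 for XRCC2, 0.56 for MND1, 0.54 for EME1, 0.60 for FANCB, 0.60 for FANCE and 0.55 for FANCD2. All 32 differences were tested as contrasts of 4 group means in limma with Benjamini-Hochberg adjustment over 14993 genes.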

How the results depend on the processing

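The fold threshold moved the counts most. With no fold threshold, at 24 h, 8 of the 37 genes passed for siRAD21 against siCtrl (2 higher, 6 lower; 25.8% of all genes tested), 7 for siCtrl OHT against siCtrl (5 and 2; 26.5%), 12 for siRAD21 OHT against siRAD21 (9 and 3; 35.2%), 5 against siCtrl OHT (3 and 2; 20%) and 14 against siCtrl (9 and 5; 34.4%). At 48 h they numbered 33 for siRAD21 against siCtrl (2 and 31; 57.7%), 17 for siCtrl OHT against siCtrl (13 and 4; 53.3%), 27 for siRAD21 OHT against siRAD21 (27 and 0; 60.4%), 27 against siCtrl OHT (6 and 21; 45.2%), 26 against siCtrl (9 and 17; 59.7%) and 23 for the interaction (23 and 0; 17.3%). The change between times gave 28 (1 and 27; 21.6%) and siCtrl at 48 against 24 h 24 (1 and 23; 45.2%). With a log2 fold threshold of 1 they numbered 2 for siRAD21 against siCtrl, 2 for siRAD21 OHT against siRAD21 at 48 h and 2 for the change between times, and 0 in the other comparisons. For siCtrl OHT at 48 h median centring and undoing duplicate removal gave 2 in place of 1, and for siCtrl at 48 against 24 h a pseudocount of 1, median centring and quantile normalization gave 1 in place of 2, where median centring and quantile normalization gave 1 higher and 0 lower in place of 0 and 2. The cause was not tested.

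Leaving out 1 library at a time gave 23 to 26 genes for siRAD21 against siCtrl at 48 h, 14 to 17 for siRAD21 OHT against siRAD21, 7 to 9 against siCtrl OHT, 9 to 11 against siCtrl, 8 to 11 for the interaction, 1 to 2 for siCtrl OHT, 21 to 23 for the change between times and 1 to 2 for siCtrl at 48 against 24 h. At 24 h it gave 1 to 2 for siRAD21, 0 to 1 for siCtrl OHT, 0 to 1 for siRAD21 OHT against siRAD21, 1 to 2 against siCtrl OHT and 1 to 2 against siCtrl. A lone library left in a group is assumed to vary like the others.

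A replicate block changed no call for siCtrl OHT against siCtrl at 48 h, where the numbers may pair the libraries (1 gene with and without it). Same-numbered siRAD21 libraries at 48 h also deviated with those of siCtrl OHT (r = 0.169 and 0.111) and siCtrl (r = 0.099 and 0.146), but 2 pairs are too few to show pairing. There and elsewhere the libraries are taken to share only a number, and the block gave 9 genes in place of 8 for siRAD21 OHT against siCtrl OHT and 9 in place of 10 against siCtrl at 48 h, with no other count moved. Crossing the siCtrl numbers at 24 h gave the same counts. Of 100 calls of a gene in a comparison, 21 were lost in some setting other than the fold threshold and none changed sign. Averaging the siRAD21 OHT libraries at 48 h moved no count, and RAD54B could not be tested at a mean of at least 5 eRPKM.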

Other observations

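MYC, which was not among the 37 genes, was at 54.6, 49.9 and 52.3 eRPKM in siCtrl, 57.5 and 56.4 in siRAD21 and 36 and 32.9 in siRAD21 OHT libraries at 48 h. Its log2 fold change was 0.12 (SE 0.063) for siRAD21 against siCtrl, which did not pass the test, and -0.72 (SE 0.069) for OHT in siRAD21 cells, where it fell. At 24 h MYC was at 55.2 and 51.7 eRPKM in siCtrl and 44.8 and 44.6 in siRAD21 libraries (-0.25, SE 0.069), short of the fold threshold. With OHT in both arms it was at -0.45 (SE 0.069) at 24 h and -0.38 (SE 0.063) at 48 h for siRAD21 OHT against siCtrl OHT, again short of it. In siRAD21 cells MYC also fell with OHT at 24 h (-0.57). Against siCtrl, siRAD21 OHT was at -0.82 at 24 h and -0.60 at 48 h, and both passed. OHT in siCtrl cells gave -0.37 at 24 h and -0.22 at 48 h, short of the fold threshold. How reads of the MycER transgene enter the level of MYC is not given in the sources used here.

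ATR, the kinase that answers replication stress, was at 8.15, 7.999 and 8.31 eRPKM in siCtrl, 7.75, 8.03 and 8.83 in siCtrl OHT, 9.85 and 9.44 in siRAD21 and 13.5 and 13.1 in siRAD21 OHT libraries at 48 h. Its siRAD21 OHT libraries stood above those of all other groups at 48 h, and its interaction of 0.44 (limma with Benjamini-Hochberg adjustment, adjusted p = 0.022) was short of the fold threshold.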
